A study of Homo sapiens with 21 samples.

Results

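The genes described here are 10 members of the bone morphogenetic protein (BMP) branch of TGF-beta signalling, of 60671 genes in the count table of an RNA-seq study of tunicamycin treatment in 2 human cell lines. They were the rows whose Ensembl identifiers map to ID1, ID2, ID3, SMAD6, SMAD7, SMAD9, BAMBI, BMPR1A, BMPR2 and ACVR1, and each symbol matched 1 row. The members were chosen with their measured differences between tunicamycin and its solvent in these libraries in view, so for those comparisons their values are given as a description with no test. The other comparisons (solvent against untreated cells, solvent at the later against the earlier time, and one cell line against the other in solvent) were tested, and all 3 share solvent libraries with the comparisons that guided the choice.

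BMP ligands bind pairs of type I and type II receptor kinases, which phosphorylate SMAD1, SMAD5 and SMAD9. These enter the nucleus with SMAD4 and switch on a short list of targets, of which the ID genes are the best known. ID proteins pair with basic helix-loop-helix (bHLH) factors such as TCF3 and keep them from binding DNA, and in blood progenitors they hold back differentiation. The inhibitory SMAD6 and SMAD7 and the decoy receptor BAMBI are themselves induced by the pathway and damp it.

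The study had 7 groups of 3 libraries. OCI-AML3, an acute myeloid leukaemia line grown in RPMI, was sampled untreated at 0 h, with DMSO for 4 h and 24 h, and for the same 2 times with tunicamycin (1 μg/mL). HEK293T, a human embryonic kidney line grown in DMEM, was sampled after 24 h in DMSO or tunicamycin, and HEK293T at 4 h was not analysed here. Tunicamycin blocks N-linked glycosylation and so loads the endoplasmic reticulum with misfolded proteins. Each cell line differed from the other in its medium as well. The labels do not say whether the 3 replicates of a group were separate cultures, so p-values measure the spread between these libraries, which may be technical.

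The total count of a library was between 13838466 and 19961798 (median 16657737), and a gene was tested when it reached 1 CPM (count per 1000000) in at least 8 of the 21 libraries, which left 14012 genes. Levels are in CPM, that is, relative to the sum of counts in tested genes after TMM scaling of the libraries. Of the 10 members 9 passed, and SMAD9 did not because the OCI-AML3 libraries held 1 to 17 counts of it. A count of 3, taken as the limit of detection, was worth 0.137 to 0.231 CPM depending on the library. The blood markers PTPRC, CD33, SPI1, MPO, LYZ, CSF1R and CD34 summed to 690 to 783 CPM in the OCI-AML3 groups and 0.40 to 0.68 CPM in HEK293T. In the OCI-AML3 groups CD34 was at 0.145 to 0.262 CPM and MPO at 1.03 to 1.52 CPM. CD34 went the other way in DMSO at 24 h, with at most 3 counts in an OCI-AML3 library and a level at least 1.76-fold above that limit in HEK293T. HEK293T libraries with tunicamycin held at most 1 count of CD34. PTPRC and MPO had 0 counts in HEK293T, and PAX2 and EPCAM had 0 counts in OCI-AML3. The epithelial and kidney markers KRT8, KRT18, PAX2, CDH2 and EPCAM summed to 122 and 144 CPM in HEK293T and 3.46 to 4.94 CPM in OCI-AML3. As these are bulk libraries, fewer cells that express a gene cannot be told apart from less RNA per cell.

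The promoters of the 3 ID genes are shown because ID1 and ID3 were the members farthest from their DMSO level after 24 h of tunicamycin, whereas ID2 was close to it. Each is the 250 bases before the RefSeq start in GRCh38.p14, read 5′ to 3′ on the gene's strand. The windows are chr20:31605039-31605288 on the plus strand for ID1, chr2:8681806-8682055 on the plus strand for ID2 and chr1:23559502-23559751 on the minus strand for ID3. Capitals mark every match, on either strand, to 6 sets of letters: GGCGCC and CAGAC, which BMP-activated and other SMADs can bind, TGACGTCA and its core TGACG, which ATF and CREB factors can bind, CCAAT, and TATAA.
ID1: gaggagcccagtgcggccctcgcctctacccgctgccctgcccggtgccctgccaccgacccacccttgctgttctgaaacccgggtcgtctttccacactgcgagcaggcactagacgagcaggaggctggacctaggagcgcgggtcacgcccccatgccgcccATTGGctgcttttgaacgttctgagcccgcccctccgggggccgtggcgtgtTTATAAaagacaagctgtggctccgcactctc
ID2: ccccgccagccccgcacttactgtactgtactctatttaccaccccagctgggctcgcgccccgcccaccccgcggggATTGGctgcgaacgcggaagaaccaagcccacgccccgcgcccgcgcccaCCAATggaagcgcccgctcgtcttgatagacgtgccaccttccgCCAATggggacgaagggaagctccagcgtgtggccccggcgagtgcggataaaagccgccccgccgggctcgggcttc
ID3: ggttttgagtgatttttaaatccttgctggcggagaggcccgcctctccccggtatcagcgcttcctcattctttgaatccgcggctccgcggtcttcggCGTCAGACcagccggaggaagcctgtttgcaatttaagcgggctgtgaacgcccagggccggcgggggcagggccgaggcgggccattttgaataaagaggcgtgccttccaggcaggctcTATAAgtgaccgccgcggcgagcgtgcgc

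In the ID1 window, CCAAT lay on the reverse strand with its first base 84 bases before the start, and overlapping matches to TATAA on both strands began 32 and 31 bases before it. The ID2 window held 3 matches to CCAAT, which began 172, 122 and 78 bases before the start, and none to the other letters. In the ID3 window, TGACG on the reverse strand overlapped CAGAC at 150 and 147 bases before the start, and TATAA began 29 bases before it. None of the 3 windows held GGCGCC or TGACGTCA. Of 35116 RefSeq promoter windows of this length, 16.38% held GGCGCC, 38.0% CAGAC, 1.646% TGACGTCA, 21.2% TGACG, 32.0% CCAAT and 18.9% TATAA. GC content was 66.0%, 69.2% and 62.0% for ID1, ID2 and ID3. These matches describe the letters in a window and do not show that a factor binds there.

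**Figure D1:**
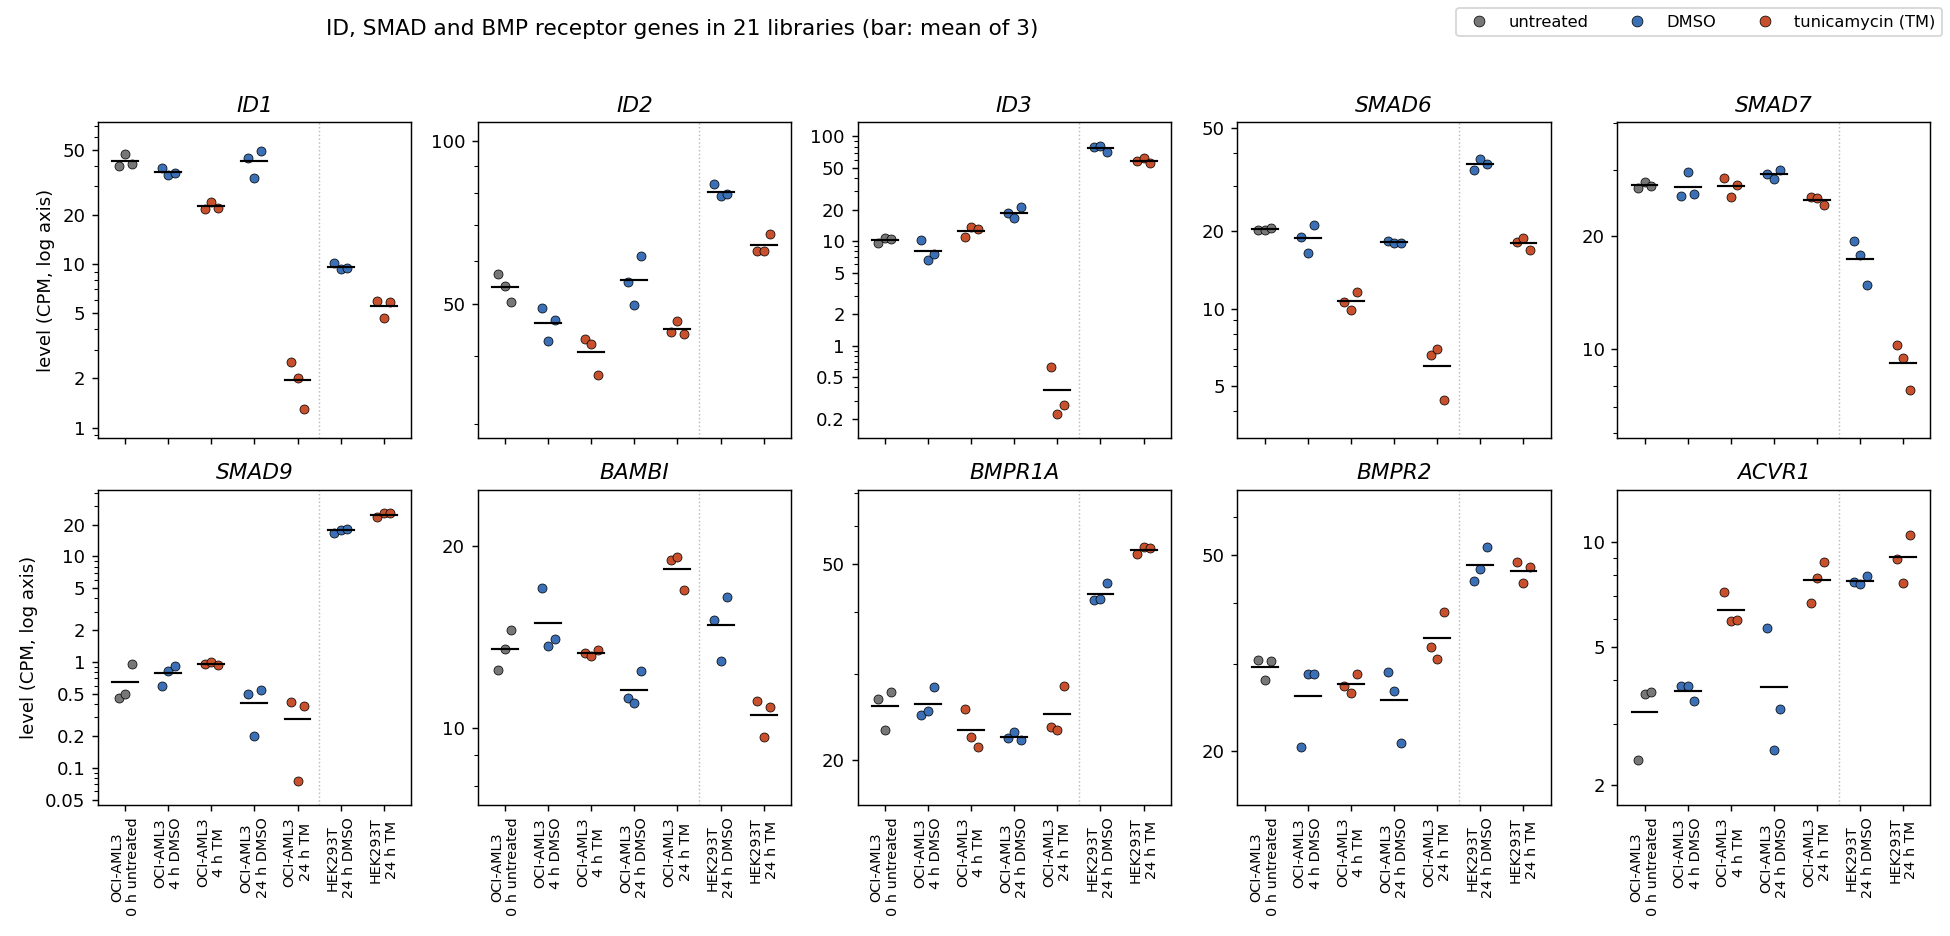
CPM of each of the 10 genes in every library, on a log axis, with the 7 groups along the horizontal axis; points are libraries and bars are group means. ID1 and ID3 in OCI-AML3 after 24 h of tunicamycin lie far under their other OCI-AML3 values, at means of 1.95 and 0.376 CPM.

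ID1 (ENSG00000125968, chr20:31605283-31606515) was strongly expressed in OCI-AML3 without tunicamycin and nearly absent after 24 h with it. Its level was 44.6, 33.7 and 49.1 CPM in DMSO at 24 h and 2.53, 2.01 and 1.31 CPM in tunicamycin. The means of 42.5 ± 7.90 and 1.95 ± 0.614 CPM (SD, n = 3) were 21.8-fold apart, and the fitted log2 fold change was -4.47 ± 0.17 (SE). At 4 h the difference was already present and smaller. ID1 was at 38.5, 34.9 and 36.2 CPM in DMSO and 21.7, 24.1 and 22 CPM in tunicamycin, a log2 fold change of -0.69 ± 0.12. In HEK293T, ID1 was low to begin with, at 10.2, 9.32 and 9.42 CPM in DMSO, and lower in tunicamycin at 5.96, 4.68 and 5.91 CPM (log2 fold change -0.81 ± 0.15). In each of the 3 comparisons every tunicamycin library was under every DMSO library. Untreated OCI-AML3 cells held 39.9, 46.8 and 41.1 CPM, which overlapped the DMSO 24 h libraries, as these did the DMSO 4 h libraries. Below these 3 groups the order was OCI-AML3 with tunicamycin for 4 h, HEK293T in DMSO, HEK293T in tunicamycin and OCI-AML3 with tunicamycin for 24 h, and no neighbours in that order overlapped.

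ID3 (ENSG00000117318, chr1:23557926-23559501) had opposite directions at the 2 times in OCI-AML3. After 4 h it was at 10.3, 6.53 and 7.50 CPM in DMSO and 11.1, 13.6 and 12.9 CPM in tunicamycin, so that all 3 tunicamycin libraries were higher (log2 fold change 0.63 ± 0.14). After 24 h it was at 18.7, 16.6 and 20.9 CPM in DMSO and 0.632, 0.223 and 0.272 CPM in tunicamycin. These last 3 values rest on 9, 3 and 5 counts, so ID3 was near the limit of detection there. The means of 18.8 ± 2.18 and 0.376 ± 0.223 CPM (SD, n = 3) were 49.9-fold apart, with a log2 fold change of -5.63 ± 0.24. Leaving out 1 library at a time gave log2 fold changes of -6.13 to -5.37. HEK293T expressed ID3 far more strongly, at 80.0, 81.1 and 71.5 CPM in DMSO, and was lower in tunicamycin at 57.7, 62.0 and 55.5 CPM (log2 fold change -0.41 ± 0.11). Untreated OCI-AML3 cells, at 9.63, 10.8 and 10.5 CPM, overlapped DMSO at 4 h, and all other neighbours in the order of the 7 group means were apart.

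ID2 (ENSG00000115738, chr2:8678845-8684461) varied least of the 3 ID genes. After 24 h in OCI-AML3 it was at 54.9, 49.7 and 61.3 CPM in DMSO and 44.3, 46.5 and 43.9 CPM in tunicamycin, a log2 fold change of -0.30 ± 0.08 with no overlap between the groups. It was -0.17 without DMSO 24 h replicate 3, -0.16 after each library's trend with gene length was removed and -0.20 after its trend with GC content was. After 4 h it was at 49.1, 42.6 and 46.8 CPM in DMSO against 43.2, 42.1 and 36.9 CPM, and the groups overlapped (-0.18 ± 0.08). In HEK293T it was at 83.1, 79.0 and 79.7 CPM in DMSO and 62.8, 62.5 and 67.5 CPM in tunicamycin (-0.33 ± 0.08). Untreated OCI-AML3 cells held 56.8, 54.1 and 50.3 CPM. Of its exon length 145 bases, or 6.55%, are shared with the opposite-strand transcript ID2-AS1, and whether reads were counted by strand is not given in the sources used here.

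The ID family as a whole had a different makeup after 24 h of tunicamycin in OCI-AML3. Levels of different genes were compared per kilobase of exon, with all annotated exons of a gene joined. This is approximate, since the expressed transcript can be shorter. ID1 to ID4 summed to 72.0 CPM per kb in OCI-AML3 in DMSO at 24 h, with ID1 at 47.9%, ID2 at 34.7% and ID3 at 17.4% of the sum. With tunicamycin for 24 h the sum was 22.1 CPM per kb, and ID2 made up 91.7% of it, ID1 7.14% and ID3 1.14%. At 4 h the sum was 55.9 CPM per kb in DMSO, of which ID1 and ID2 made up 53.0% and 37.3%, and 45.1 CPM per kb in tunicamycin, of which ID1 and ID2 made up 40.7% and 40.8%. In HEK293T the sums were 109 CPM per kb in DMSO and 95.5 CPM per kb in tunicamycin. There ID3 was the largest share, at 47.4% and 40.8%, and ID1 made up 7.16% and 4.68%. ID4, which is no member and missed the filter, had 0 counts in all 15 OCI-AML3 libraries and was at 51.2 ± 0.425 CPM in DMSO and 89.1 ± 3.08 CPM in tunicamycin in HEK293T (SD, n = 3). Its share of the HEK293T sum was 12.1% in DMSO and 24.1% in tunicamycin.

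**Figure D2:**
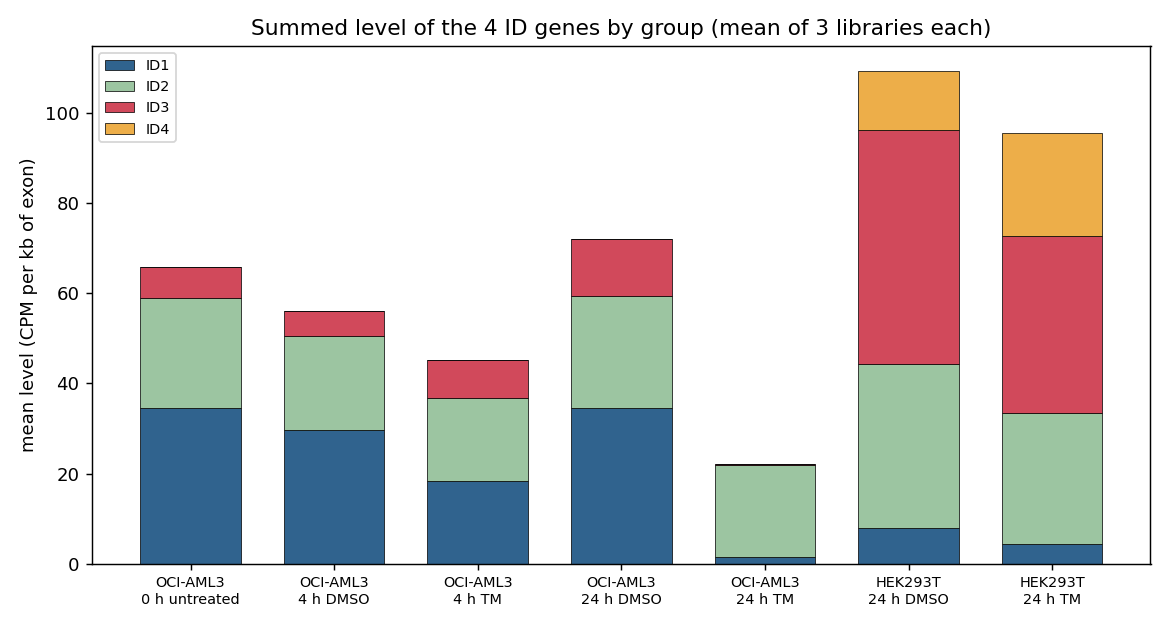
Mean level of ID1, ID2, ID3 and ID4 in CPM per kilobase of exon, stacked for each of the 7 groups. The OCI-AML3 stack after 24 h of tunicamycin is 22.1 CPM per kb tall and is nearly all ID2.

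SMAD6 (ENSG00000137834, chr15:66702236-66782849), an inhibitory SMAD that acts mainly on BMP receptors and SMAD1, was lower with tunicamycin in all 3 comparisons. In OCI-AML3 it was at 18.9, 16.4 and 21 CPM in DMSO for 4 h and 10.6, 9.86 and 11.6 CPM in tunicamycin (log2 fold change -0.82 ± 0.12). After 24 h it was at 18.4, 18 and 18 CPM in DMSO and 6.61, 7 and 4.41 CPM in tunicamycin, 3.02-fold lower by the means (-1.61 ± 0.13). In HEK293T it was at 34.4, 37.9 and 36.3 CPM in DMSO and 18.1, 18.8 and 16.9 CPM in tunicamycin, 2.02-fold lower (-1.01 ± 0.11). No tunicamycin library reached a DMSO library of its comparison. Untreated OCI-AML3 cells held 20.2, 20.1 and 20.6 CPM, which overlapped DMSO at 4 h. In the order of group means HEK293T in DMSO stood above all others, and OCI-AML3 with tunicamycin for 4 h and then for 24 h stood below all others, without overlap.

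SMAD7 (ENSG00000101665, chr18:48919853-48950965), the inhibitory SMAD of both the BMP and the TGF-beta branch, was near its DMSO level in OCI-AML3 and lower with tunicamycin in HEK293T. In OCI-AML3 at 4 h it was at 25.5, 29.6 and 25.9 CPM in DMSO and 28.5, 25.4 and 27.3 CPM in tunicamycin, overlapping groups with a log2 fold change of 0.00 ± 0.10. The 24 h values were 29.3, 28.2 and 30.0 CPM against 25.4, 25.2 and 24.2 CPM (-0.23 ± 0.10). In HEK293T it was at 19.4, 17.8 and 14.8 CPM in DMSO and 10.2, 9.48 and 7.79 CPM in tunicamycin (-0.91 ± 0.11), so every tunicamycin library was well under every DMSO library. The 24 h difference in OCI-AML3 was -0.07 after a trend with GC content was taken out and -0.15 without TMM scaling. Untreated cells held 26.9, 27.8 and 27.2 CPM, and the 3 lowest group means, OCI-AML3 with tunicamycin for 24 h and the HEK293T groups, each stood apart from the next.

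SMAD9 (ENSG00000120693, chr13:36844831-36920887), one of the SMADs that BMP receptors phosphorylate, was low in OCI-AML3, where the libraries held 1 to 17 counts. It lay between 0.0745 and 0.998 CPM over the 15 libraries, and no difference among the OCI-AML3 groups is read from these counts. In HEK293T it was at 16.8, 17.8 and 18.2 CPM in DMSO and 23.5, 25.5 and 25.5 CPM in tunicamycin, 1.41-fold higher with no overlap (log2 fold change 0.48 ± 0.14 in a fit without the filter).

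BAMBI (ENSG00000095739, chr10:28677510-28682932), a receptor-like protein with no kinase domain, had a different direction from one comparison to the next. At 4 h in OCI-AML3 it was at 17, 13.6 and 14 CPM in DMSO and 13.3, 13.1 and 13.4 CPM in tunicamycin (log2 fold change -0.16 ± 0.11), and this became -0.04 without DMSO 4 h replicate 1. At 24 h it was at 11.2, 11 and 12.4 CPM in DMSO and 19, 19.1 and 16.9 CPM in tunicamycin, higher in all 3 (0.67 ± 0.11). In HEK293T it was at 15.1, 12.9 and 16.5 CPM in DMSO and 11.1, 9.64 and 10.8 CPM in tunicamycin, lower in all 3 (-0.50 ± 0.11). Untreated OCI-AML3 cells held 12.5, 13.5 and 14.5 CPM. Neighbouring group means overlapped except that OCI-AML3 with tunicamycin for 4 h stood apart from DMSO at 24 h.

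ACVR1 (ENSG00000115170, chr2:157736251-157876330), a type I receptor also called ALK2, was the farthest above its DMSO level in OCI-AML3 of the 3 member receptors. It was at 3.85, 3.84 and 3.49 CPM in DMSO at 4 h and 7.16, 5.93 and 5.95 CPM in tunicamycin (log2 fold change 0.77 ± 0.22). At 24 h it was at 5.67, 2.53 and 3.31 CPM in DMSO and 6.68, 7.89 and 8.76 CPM in tunicamycin (1.03 ± 0.22), from means of 3.84 ± 1.63 to 7.78 ± 1.05 CPM (SD, n = 3). All tunicamycin libraries were higher at both times. DMSO 24 h replicate 1 carried much of the spread, and the 24 h log2 fold change was 1.47 without it and 0.82 after removal of the trend with GC content. HEK293T held 7.64, 7.55 and 8 CPM in DMSO and 8.94, 7.63 and 10.5 CPM in tunicamycin, which overlapped (0.22 ± 0.19). With 1 library left out the HEK293T log2 fold change ran from 0.10 to 0.32. Untreated OCI-AML3 cells held 2.36, 3.65 and 3.71 CPM and overlapped both DMSO groups.

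BMPR1A (ENSG00000107779, chr10:86756596-86932825) and BMPR2 (ENSG00000204217, chr2:202376327-202567751) are the main type I and type II receptors for BMPs. Their log2 fold changes with tunicamycin ran from -0.18 to 0.42. BMPR1A in OCI-AML3 was at 24.7, 25.2 and 28.2 CPM in DMSO and 25.4, 22.4 and 21.3 CPM in tunicamycin at 4 h (log2 fold change -0.18 ± 0.09). The 24 h values were 22.2, 22.8 and 22 CPM against 23.3, 23.0 and 28.3 CPM (0.16 ± 0.09), and the sign turned to -0.03 after removal of the GC trend. In HEK293T it was at 42.3, 42.5 and 45.8 CPM in DMSO and 52.5, 54.1 and 54.1 CPM in tunicamycin (0.30 ± 0.08), with all 3 tunicamycin libraries higher. Among the OCI-AML3 groups all neighbours overlapped for BMPR1A, including untreated cells at 26.6, 23.1 and 27.5 CPM. BMPR2 in OCI-AML3 was at 20.3, 28.7 and 28.7 CPM in DMSO and 27.1, 26.2 and 28.6 CPM in tunicamycin at 4 h (0.07 ± 0.12), which overlapped. With 1 library left out this log2 fold change ran from -0.06 to 0.15. The later values were 28.9, 26.5 and 20.7 CPM in DMSO and 32.5, 30.8 and 38.3 CPM in tunicamycin (0.42 ± 0.12), higher in all 3. In HEK293T the groups overlapped, at 44.4, 46.8 and 51.9 CPM against 48.4, 43.9 and 47.3 CPM (-0.04 ± 0.11), and untreated OCI-AML3 cells held 30.5, 27.8 and 30.5 CPM. Both are long transcripts, so the trend with gene length is given here, and its part in these values was not tested beyond the fit with that trend removed. The change of log2 level per doubling of gene length against the group mean was -0.0805 in DMSO 4 h replicate 1 and -0.0589 in DMSO 24 h replicate 3, and 0.0661 in tunicamycin 24 h replicate 3, where BMPR1A and BMPR2 were highest. The log2 fold change of BMPR2 at 24 h was 0.24 with the length trend removed and 0.22 with the GC trend removed, and ran up to 0.57 over the other alternatives.

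**Figure D3:**
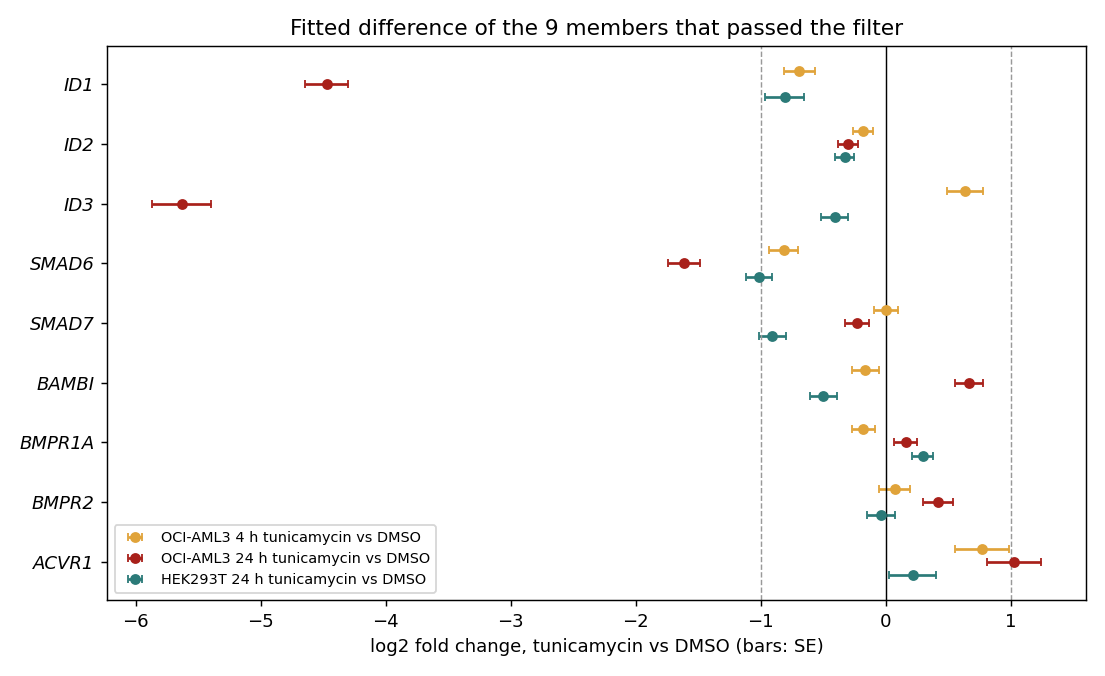
Fitted log2 fold change of tunicamycin over DMSO for each gene in the 3 comparisons, with bars of 1 SE either side and lines at -1 and 1. ID1 at -4.47 and ID3 at -5.63 stand alone on the left, both in OCI-AML3 at 24 h.

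A gene was called when its adjusted p was at most 0.05 and its log2 fold change was above 1 or below -1 (edgeR's quasi-likelihood test, Benjamini-Hochberg over all genes tested). With tunicamycin for 4 h in OCI-AML3, 0 of the 9 tested members were called by edgeR, limma voom or DESeq2, where edgeR called 4.92% of all tested genes, 3.45% higher and 1.47% lower. At 24 h 4 of 9 were called, with ID1, ID3 and SMAD6 lower and ACVR1 higher, where 6.32% of all tested genes were, 2.26% lower and 4.05% higher. Without DMSO 24 h replicate 2 or 3, without tunicamycin 24 h replicate 3, or with the trend of either gene length or GC content removed, ACVR1 missed the fold threshold and 3 were called. In HEK293T 1 of 9, SMAD6, was called lower, where 2.13% of all genes were called, 0.55% lower and 1.58% higher. Without HEK293T DMSO replicate 2 or tunicamycin replicate 3, SMAD6 missed the fold threshold and the count was 0, and without DMSO replicate 3 SMAD7 was called as well. Since the members were chosen with these contrasts known, nothing is read from these counts. The members' median log2 fold change was -0.16, -0.23 and -0.41 in the 3 comparisons, beside -0.02, -0.01 and -0.01 over all genes tested. The markers of the stress response were raised in the same libraries, with HSPA5, the main chaperone of the endoplasmic reticulum, at log2 fold changes of 3.29, 3.52 and 2.7.

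Solvent alone was tested against untreated OCI-AML3 cells, a comparison that did not guide the choice of members. No member was called by edgeR at 4 h, and 2 members were at an unadjusted p under 0.05 in each of edgeR, limma voom and DESeq2. The lowest adjusted p was that of ID2, at 0.53 with a log2 fold change of -0.22 ± 0.08, and ID1 was at -0.22 ± 0.12 (adjusted p = 0.64). The fit called 0 of all 14012 genes here (0%), with 1160 at an unadjusted p under 0.05, 1186 by limma voom and 1130 by DESeq2.

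Between 4 h and 24 h in DMSO, ID3 rose 2.31-fold in OCI-AML3, from 8.11 ± 1.96 to 18.8 ± 2.18 CPM (SD, n = 3), with a log2 fold change of 1.21 ± 0.14 and an adjusted p of 4.7e-07 (edgeR). It was 1 of 9 members called, beside 4.15% of all tested genes (3.48% higher and 0.664% lower), and all 3 libraries at 24 h were higher. ID2 rose by less, with a log2 fold change of 0.26 ± 0.08 (adjusted p = 0.013, edgeR), and BAMBI fell by 0.37 ± 0.11 on the log2 scale (adjusted p = 0.011). The ID2 result was lost without TMM scaling, where its log2 fold change was 0.14 (adjusted p = 0.13), with every gene of at least 1 count tested (adjusted p = 0.074), with the compared groups alone (adjusted p = 0.065), and without DMSO 4 h replicate 2 or DMSO 24 h replicate 3. The BAMBI result was lost with the compared groups alone (adjusted p = 0.056) and without DMSO 4 h replicate 1. ID1 did not pass the test, at 0.21 ± 0.12 (adjusted p = 0.15, edgeR), but was at 0.36 (adjusted p = 0.017) without DMSO 24 h replicate 2. With the GC trend removed ID1 was at 0.07, and its adjusted p ran up to 0.61 over the alternatives. BMPR1A was at -0.22 ± 0.09 (adjusted p = 0.06, edgeR), with adjusted p of 0.0099 without TMM scaling and 0.044 without DMSO 4 h replicate 1. With the GC trend removed its log2 fold change was -0.01, and its adjusted p ran up to 0.91 over the alternatives. The adjusted p of SMAD6, SMAD7, BMPR2 and ACVR1 were 0.38 to 0.91. The DMSO libraries of both times are also the controls of the tunicamycin comparisons by which members were chosen.

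Between the 2 cell lines in DMSO at 24 h, all 9 tested members were at an adjusted p under 0.05 (edgeR), as were 11590 of all 14012 genes, so nothing particular to the members is read from this count. It was lost for BAMBI when every gene of at least 1 count was tested (0.19, adjusted p = 0.25) and for ACVR1 after removal of the trend with GC content (0.40, adjusted p = 0.09). ID3 was 4.14-fold higher in HEK293T than in OCI-AML3 (log2 fold change 2.05 ± 0.12, adjusted p = 1.9e-13), whereas ID1 was 4.40-fold lower (-2.13 ± 0.13, adjusted p = 5e-13). ACVR1 was 2.02-fold higher (1.01 ± 0.21, adjusted p = 0.00014), and these were the 3 of 9 members called, beside 45.2% of all genes (20.3% higher and 24.9% lower). SMAD6, at 1.00 ± 0.11, BMPR1A, at 0.96 ± 0.09, and BMPR2, at 0.91 ± 0.12, were just under the fold threshold. With the GC trend removed they were at 1.43, 0.41 and 0.33. With DESeq2, and with the compared groups alone, 2 members were called. Without TMM scaling 6 were called, and 5 were without OCI-AML3 DMSO 24 h replicate 1 or without HEK293T DMSO replicate 1. ID2 was higher by 0.54 ± 0.08, BAMBI was higher by 0.37 ± 0.11 and SMAD7 was lower (-0.75 ± 0.10). SMAD9 held 7, 3 and 7 counts in the OCI-AML3 libraries, near the limit of detection, and 328, 332 and 399 in HEK293T, so the size of this fold is uncertain. Without TMM scaling the median gene moved by 0.34 on the log2 scale in this comparison, and the cell line and its medium cannot be told apart. Per kilobase of exon, ID1 was the highest of the 10 members in OCI-AML3 at 34.4 CPM per kb and ID3 the highest in HEK293T at 51.8 CPM per kb. BMPR1A, BMPR2 and ACVR1 were at 2.22, 2.03 and 0.390 CPM per kb in OCI-AML3 and 4.32, 3.82 and 0.785 CPM per kb in HEK293T. The length used was that of all annotated exons joined, 10074, 12502 and 9842 bases for these receptors and 1233 bases for ID1. Where the expressed transcript is shorter, the level per kb comes out too low, so this order is approximate. In CPM the receptors were at 22.3, 25.4 and 3.84 in OCI-AML3, beside 42.5 for ID1.

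The rest of the pathway was followed in 107 further genes grouped by role, of which 51 passed the filter. These lists were drawn up with earlier results of these data known, and they hold ATF3 and EGR1, which are not BMP signalling genes and were both called at 4 h. In OCI-AML3, 10 of these were called after 4 h of tunicamycin (19.6%, 7 higher and 3 lower) and 9 after 24 h (17.6%, 7 higher and 2 lower), and in HEK293T 1 was called (1.96%). The shares called among all tested genes in these comparisons were 4.92%, 6.32% and 2.13%. With 1 library left out these counts were 10 to 11, 7 to 11 and 1. The medians over those above the limit of detection were -0.04, 0.17 and -0.05 on the log2 scale, beside -0.02, -0.01 and -0.01 over all genes tested. The 6 tested ligands included 0 called genes at 4 h and 1 at 24 h, BMP8A, which rose from 2.64 ± 0.196 to 5.32 ± 1.36 CPM (log2 fold change 1.01 ± 0.26, adjusted p = 0.0023). NOG, a secreted BMP antagonist, was the 1 antagonist of 4 called at 4 h (-1.35 ± 0.42, adjusted p = 0.014), from 1.10 ± 0.517 to 0.433 ± 0.0798 CPM. INHBE, an activin subunit that missed the filter and was picked out after its values were seen, went from 0 or 1 count a library to 5.52 to 6.68 CPM at 4 h, at least 33.4-fold higher against a limit of 3 counts a library.

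The TGF-beta receptors rose in OCI-AML3 at 24 h and were not called in HEK293T. TGFBR1, the type I receptor for TGF-beta, went from 148 ± 12.7 to 390 ± 75.9 CPM (SD, n = 3; edgeR log2 fold change 1.40 ± 0.12, adjusted p = 2e-09). TGFBR2, its type II partner, went from 77.99 ± 9.75 to 169 ± 7.76 CPM (1.11 ± 0.09, adjusted p = 1.9e-09). In HEK293T they were at 0.32 ± 0.12 and -0.30 ± 0.13, with adjusted p of 0.053 and 0.092. The difference between the cell lines passed the interaction test for both, at -1.07 ± 0.17 for TGFBR1 (adjusted p = 6e-05) and -1.41 ± 0.16 for TGFBR2 (adjusted p = 8.2e-07).

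Of the 5 other SMADs 1 was called at each time in OCI-AML3, and it was SMAD1, a BMP-activated SMAD, on few counts. At 4 h its levels were 0.384 to 0.664 CPM in DMSO and 1.29 to 1.89 CPM in tunicamycin, with a log2 fold change of 1.53 ± 0.39. SMAD1 would have missed the filter without these tunicamycin libraries, so the call at 4 h is a description with no weight as a test. At 24 h its levels were 0.400 to 1.29 CPM in DMSO and 0.0745 to 0.281 CPM in tunicamycin (-1.97 ± 0.56, adjusted p = 0.0055, edgeR). The tunicamycin libraries held at most 4 counts, near the limit of detection, so the size of this fold is uncertain. HEK293T held 15.95 to 16.7 CPM of SMAD1 in DMSO and 21.1 to 22.2 CPM in tunicamycin (0.40 ± 0.17, adjusted p = 0.091). SMAD5, the abundant BMP-activated SMAD in both lines, was at 40.0 ± 1.78 CPM in DMSO and 44.7 ± 6.46 CPM in tunicamycin at 24 h in OCI-AML3 (0.16 ± 0.09, adjusted p = 0.14). SMAD4, the shared partner, rose by 0.26 ± 0.07 (adjusted p = 0.0027).

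Among 12 tested inhibitors and corepressors inside the cell, 3 were called at 4 h and 1 at 24 h in OCI-AML3. SKIL, a corepressor of SMADs and itself a TGF-beta target, rose from 5.83 ± 1.69 to 18.3 ± 2.13 CPM at 24 h (1.65 ± 0.17, adjusted p = 7.8e-08). At 4 h SKIL and TGIF1 were higher (1.26 ± 0.16 and 1.23 ± 0.13), and the corepressor TGIF2 fell from 49.9 ± 4.36 to 22.8 ± 0.811 CPM (-1.13 ± 0.08, adjusted p = 3.3e-10). In HEK293T 0 of the 12 were called by edgeR, and SKIL was lower by less than the threshold (-0.55 ± 0.14, adjusted p = 0.006).

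GATA2 fell in OCI-AML3 at both times, and CCN2 was lower at 4 h and higher at 24 h. GATA2, a haematopoietic transcription factor listed with the BMP targets, fell in OCI-AML3 at 4 h from 3.69 ± 0.654 to 1.32 ± 0.469 CPM (log2 fold change -1.45 ± 0.23, adjusted p = 3.3e-05, edgeR). At 24 h it fell from 5.17 ± 0.528 to 1.01 ± 0.428 CPM (-2.31 ± 0.24, adjusted p = 5.4e-08). In HEK293T GATA2 was at 30.3 ± 3.09 CPM in DMSO and 20.8 ± 0.348 CPM in tunicamycin, lower without overlap but not called. It was 1 of only 2 genes of the 13 in that list that passed the filter. Among the TGF-beta targets, CCN2, a matrix-associated protein, rose at 24 h from 1.15 ± 0.509 to 3.18 ± 0.560 CPM (1.47 ± 0.35, adjusted p = 0.0015). At 4 h CCN2 was at 1.74 ± 0.607 CPM in DMSO and 0.861 ± 0.419 CPM in tunicamycin, 2.02-fold lower by the means with overlapping libraries (adjusted p = 0.047, edgeR). At 24 h LTBP2, which passed the filter only with the tunicamycin 24 h libraries included, was at 1.02 ± 0.32.

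The bHLH proteins that ID proteins bind, TCF3, TCF4 and TCF12, were all expressed in both lines. TCF3 fell at 24 h in OCI-AML3 from 207 ± 12.4 to 134 ± 16.7 CPM (-0.62 ± 0.08, adjusted p = 1.3e-06, edgeR), less than the fold threshold. TCF12 rose at 4 h (0.56 ± 0.09, adjusted p = 4.3e-05), at 24 h (0.38 ± 0.09, adjusted p = 0.002) and in HEK293T (0.45 ± 0.10, adjusted p = 0.0013), each time under the threshold. TCF4 was at adjusted p of 0.34, 0.085 and 0.75. The 1 of 5 genes of this group called at 4 h was TAL1 (1.33 ± 0.22, adjusted p = 5.8e-05), a blood bHLH factor.

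ATF3, a stress-induced repressor reported to act on ID1, and EGR1, an immediate early factor, both rose in OCI-AML3 at 4 h. ATF3 rose at 4 h in OCI-AML3 from 1.49 ± 0.634 to 18.7 ± 1.46 CPM (3.66 ± 0.17, adjusted p = 6.7e-14, edgeR). At 24 h it was at 2.78 ± 0.337 CPM in DMSO and 4.07 ± 0.563 CPM in tunicamycin (0.56 ± 0.19, adjusted p = 0.018). In HEK293T ATF3 rose from 19.2 ± 0.842 to 90.9 ± 3.38 CPM (2.24 ± 0.11, adjusted p = 3.3e-13). EGR1 rose at 4 h from 8.61 ± 2.46 to 37.4 ± 3.78 CPM (2.12 ± 0.15, adjusted p = 1.3e-10). At 24 h EGR1 was at 32.1 ± 3.55 CPM in DMSO and 48.4 ± 5.21 CPM in tunicamycin (0.59 ± 0.13, adjusted p = 0.00079). It also rose with time in DMSO alone (1.90 ± 0.15, adjusted p = 2.1e-09).

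**Figure D4:**
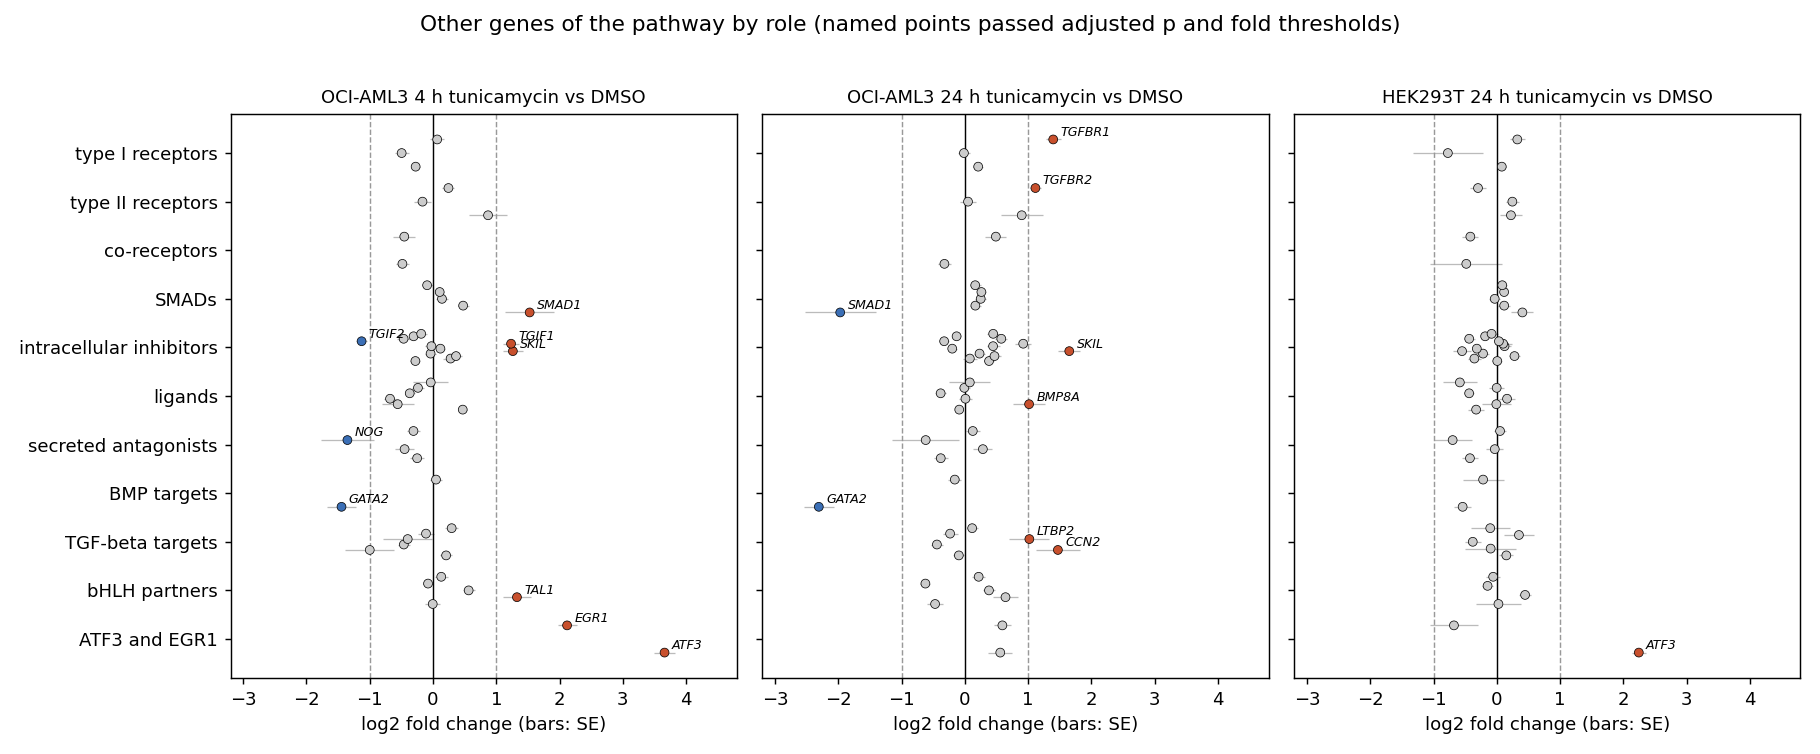
Log2 fold change of tunicamycin over DMSO of the tested and reported pathway genes outside the 10 members, by role, for the 3 comparisons with bars of 1 SE; coloured and named points passed the calling rule. ATF3 at 3.66 at 4 h and 2.24 in HEK293T, and GATA2 at -2.31 at 24 h, are the outer points named in the text.

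Over the 15 OCI-AML3 libraries, log2 levels of ID1 went most closely with those of CCNB1 (Pearson's r = 0.985), PALD1 (0.985), PRTN3 (0.984), IFI27 (0.983) and TUBA1B (0.982). CCNB1 encodes cyclin B1 of mitosis, PRTN3 the granule protease proteinase 3, and TUBA1B an alpha-tubulin. At 24 h in OCI-AML3 their log2 fold changes with tunicamycin were -1.09, -1.77, -2.80, -3.61 and -1.24 in that order, all smaller in size than that of ID1. Among the members, the correlation with ID1 was 0.956 for ID3, 0.937 for SMAD6, 0.676 for SMAD7 and 0.411 for ID2. It was -0.116 for BMPR1A, -0.632 for BMPR2, -0.744 for ACVR1 and -0.760 for BAMBI. These correlations describe libraries that share their treatment groups, 3 libraries to a group. They include the tunicamycin libraries in view when the members were chosen, so nothing is read from those among the members. ID1 and ID3 were both lowest after 24 h of tunicamycin, at means of 1.95 and 0.376 CPM. At 4 h their log2 fold changes had opposite signs (-0.69 and 0.63).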

How the data were processed

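RNA-seq libraries of OCI-AML3 and HEK293T were used as 1 deposited table of RSEM expected counts per gene for 21 libraries, which the authors made with STAR and RSEM on GRCh38 per the submitters' processing notes. Of all values, 3.54% to 4.22% a library were not whole, and expected counts were rounded. Total counts were 13838466 to 19961798 a library. Tests used edgeR 4.0.16 in R 4.3.3 (TMM, quasi-likelihood, 7 group means, genes with 1 CPM in at least 8 libraries, Benjamini-Hochberg over 14012 genes). The standard error is the fold change over the root of F. Exon lengths and positions came from GENCODE 44, promoters from RefSeq (GRCh38.p14), and figures from matplotlib 3.10.9. The test recovered known changes in simulated data. The members, gene lists and tests were chosen with earlier results of these data known. Named were all members, pathway genes called in a tunicamycin comparison (the 4 farthest in each direction and comparison), 9 set genes such as ATF3 and the 5 genes most like ID1; TGFBR2, BMP8A, LTBP2, TGIF1, TAL1, TOB1, INHBE and SKIL at 4 h were named after their values were seen. Alternatives were limma 3.58.1 voom, DESeq2 1.42.0 and its size factors, no TMM, 2 other filters, compared groups alone, a replicate block, each library left out and, added after seeing the data, removal of length and GC trends. 1 pathway gene enters the counts but is not reported here.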

Additional observations from a re-analysis of the deposited data

Results flagged for a closer look

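ID3 and BAMBI moved in opposite directions between comparisons, with every library of one comparison on one side of its DMSO group and every library of the other on the opposite side. ID3 had a log2 fold change with tunicamycin in OCI-AML3 of 0.6334 at 4 h and -5.6332 at 24 h. BAMBI was at -0.1619 at 4 h and 0.6673 at 24 h in OCI-AML3 and at -0.4989 in HEK293T. Its 4 h value was small and became -0.0422 without DMSO 4 h replicate 1. The highest tunicamycin library there was at 13.4 CPM and the lowest DMSO library at 13.6 CPM. These differences between comparisons were not tested, since the members were chosen with the comparisons known.

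For other pathway genes, the tunicamycin effect differed between 24 h and 4 h in OCI-AML3 by the interaction test of edgeR, with a difference above 1 or below -1 on the log2 scale. The effect at 24 h was the higher for TGFBR1 (1.3293), the antiproliferative factor TOB1 (1.0391), BMP8A (1.5723), CCN2 (2.4692) and LTBP2 (1.4182). It was the lower for SMAD1 (-3.4992), ATF3 (-3.1014) and EGR1 (-1.5271). Adjusted p ran from 2.1e-08 for ATF3 to 0.031 for LTBP2. SMAD1 and LTBP2 passed the filter only with the libraries of their higher group included (tunicamycin at 4 h and at 24 h), so their differences are a description.

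The 24 h effect also differed between the cell lines by the same test. HEK293T minus OCI-AML3 was negative for TGFBR1 (-1.072), TGFBR2 (-1.4124), SKIL (-2.199), TOB1 (-1.012), BMP8A (-1.0219), CCN2 (-1.5673) and EGR1 (-1.2704). It was positive for SMAD1 (2.3751), GATA2 (1.7691) and ATF3 (1.6856). Adjusted p ran from 2.7e-07 for SKIL to 0.034 for CCN2. Cell line and medium cannot be told apart in this comparison.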

How the results depend on the processing

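Each log2 fold change of the 9 tested members and each count of calls was recomputed under 16 alternatives, except that DESeq2 gave no adjusted p for ACVR1 at 4 h against untreated cells. The values of single pathway genes were not recomputed. With tunicamycin in OCI-AML3 the number of members called was 0 at 4 h and 3 to 4 at 24 h under all of them. In HEK293T, where SMAD6 lay next to the fold threshold, the number was 0 with the compared groups alone, 0 with the GC trend removed, and 0 to 2 with 1 library left out. Between the cell lines in DMSO it was 2 with DESeq2, its size factors, the compared groups alone or the length trend removed, 6 without TMM scaling and 3 to 5 with 1 library left out. Of the pathway genes, 14 were called at 24 h in OCI-AML3 when every gene with at least 1 count was tested and 14 with 1 CPM in at least 3 libraries, as more genes entered the test. The same filters gave 3 and 2 in HEK293T. In the tunicamycin comparisons 12 of 432 recomputed values had the other sign. In OCI-AML3 at 4 h SMAD7 ran from -0.0362 to 0.0749 and BMPR2 from -0.0572 to 0.1543. BMPR2 in HEK293T ran from -0.1143 to 0.0286, and BMPR1A in OCI-AML3 at 24 h from -0.0268 to 0.2652. Signs turned only for differences near 0 among the tested comparisons. SMAD7 at 4 h against untreated cells was at 0.0067 without TMM scaling and -0.0869 to 0.0359 with 1 library left out, where BMPR1A ran from -0.045 to 0.068. Between 24 h and 4 h in DMSO, SMAD6 was at 0.0197 with the length trend removed and -0.1417 to 0.0378 with 1 library left out, SMAD7 was at -0.0104 without TMM scaling and -0.0145 with the GC trend removed, and BMPR2 was at 0.0795 with the length trend and 0.1876 with the GC trend removed and -0.172 to 0.0935 with 1 library left out. ACVR1 there was at -0.0426 by limma voom, -0.0788 without TMM scaling and -0.357 to 0.2793 with 1 library left out. The cause was not tested.

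With a replicate block the members called were 0, 4 and 1 in the tunicamycin comparisons and 0, 1 and 3 in the others, and the pathway genes 10, 9 and 1, so the block changed no count. The replicate numbers were not read as pairing, since 3 of 18 pairs of same-numbered libraries correlated above 0.1 (-0.139 to 0.199). Depth limits ID3 after 24 h of tunicamycin, and SMAD9 and SMAD1 in OCI-AML3.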
